A study of Rattus norvegicus with 9 samples.

Results

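The 10 collagen genes described here code for chains that accompany or anchor the main collagen fibrils, or sit at the cell surface, rather than build them. They were taken by symbol from the 17602 genes of the deposited table, which holds 44 genes for collagen chains in all. Their symbols are Col12a1, Col14a1, Col16a1, Col22a1 and Col9a2, which code for fibril-associated collagens, Col17a1 and Col23a1, which code for transmembrane collagens, Col7a1, which codes for the anchoring fibril collagen, and Col26a1 and Col28a1, which belong to neither class. The 10 genes were chosen by their collagen class and with their TPM values in these libraries already known, so that some rise and some fall. The differences between groups are therefore given for these genes as a description, without a test.

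RNA was sequenced from the knees of wild-type Lewis rats, with 3 libraries in each of 3 groups. Per the methods of the study, the rats were males of 10 to 12 weeks of age. The Intact group was synovium, the lining tissue of the joint, from around the medial meniscus of rats that had no surgery. Sham surgery consisted of entering the joint through its capsule and closing it again, and the corresponding synovium was taken 1 week later. The pMx group was regenerating tissue 1 week after partial meniscectomy, in which the ligament holding the meniscus to the tibia was cut and the front part of the medial meniscus was taken out. The surrounding synovium was removed from the pMx samples, so that the pMx and Sham groups differ in tissue as well as in surgery, and these cannot be told apart. The labels call the libraries biological replicates, and the sources used here do not say whether any came from both knees of 1 rat, in which case the spread between libraries would be partly technical.

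Expression is given in TPM, transcripts per 1000000, a level scaled for transcript length and set to sum to the same total in each library, so that levels of different genes can be compared. The table keeps no read counts, so the depth is unknown. Differences between groups are differences in mean log2(TPM + 1), with the standard error from limma. A gene is called when its adjusted p is below 0.05 and its difference is above 1 in size, and 16512 genes with a value above 0 in at least 3 libraries were tested. All 10 genes passed that filter. The Intact replicate 3 library held skeletal muscle RNA, with 49791 TPM in the sum of 12 muscle markers (4.98% of its total) against 67.3 to 3471 TPM in the other 8 libraries. The lubricin gene Prg4, a marker of synovial lining cells, had means of 2650 TPM in Intact, 1310 TPM in Sham and 1450 TPM in pMx, with the Sham libraries all below the Intact libraries. Clic5, another lining marker, had means of 462, 239 and 13.1 TPM in the same order. The fibroblast marker Thy1 had means of 122, 326 and 1040 TPM and was called higher in both comparisons, as was Col1a2. Of the same lining and fibroblast markers, Pdgfra had means of 70.2, 84.6 and 79.8 TPM and Pdpn of 108, 166 and 212 TPM. Neither of them was called in either comparison. The order of Thy1, without overlap between groups, was also seen for Col12a1, Col16a1, Col17a1 and Col7a1, although Col17a1 and Col7a1 were not called. The part of such cells in the values of these genes was not tested. The RNA integrity numbers listed by the study also moved with the groups, lowest in Intact, higher in Sham and highest in pMx without overlap, and the part of RNA quality in the differences was not tested.

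Collagen fibrils of tendon, ligament, meniscus and joint capsule are built mainly from type I collagen. Fibril-associated collagens with interrupted triple helices (FACITs) do not form fibrils themselves. They lie on the fibril surface, and their large globular ends reach into the space between fibrils, where they meet proteoglycans and other matrix proteins. Type XII and type XIV collagens are the FACITs typical of dense connective tissue, type IX is that of cartilage, and type XXII is found at tissue junctions such as that between muscle and tendon. Transmembrane collagens span the cell membrane and can be shed, type VII collagen ties basement membranes to the stroma below, and type XXVIII collagen is known from the surroundings of Schwann cells in peripheral nerve.

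Promoter windows placed by the annotated gene starts of RefSeq (assembly GRCr8) were matched by gene identifier for 7 of the 10 genes. The 250 bases before the annotated start are shown for the 3 matched genes that were called in pMx versus Sham, 1 higher and 2 lower. The expression values were aligned to another assembly, mRatBN7.2, so these coordinates belong to the sequences alone. Capitals mark GGGCGG, the GC box bound by Sp family factors, on either strand.
Col16a1, chr5:147672846-147673095, plus strand: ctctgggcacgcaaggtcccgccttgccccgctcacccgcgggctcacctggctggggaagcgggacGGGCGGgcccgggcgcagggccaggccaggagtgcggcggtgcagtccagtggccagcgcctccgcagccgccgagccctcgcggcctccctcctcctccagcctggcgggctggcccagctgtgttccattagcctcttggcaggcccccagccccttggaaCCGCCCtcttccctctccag
Col23a1, chr10:36050077-36050326, plus strand: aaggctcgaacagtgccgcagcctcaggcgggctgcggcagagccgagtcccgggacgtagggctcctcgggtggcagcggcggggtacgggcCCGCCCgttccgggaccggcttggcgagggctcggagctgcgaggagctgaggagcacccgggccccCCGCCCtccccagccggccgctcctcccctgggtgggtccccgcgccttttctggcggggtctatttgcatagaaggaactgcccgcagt
Col28a1, chr4:37184668-37184917, minus strand: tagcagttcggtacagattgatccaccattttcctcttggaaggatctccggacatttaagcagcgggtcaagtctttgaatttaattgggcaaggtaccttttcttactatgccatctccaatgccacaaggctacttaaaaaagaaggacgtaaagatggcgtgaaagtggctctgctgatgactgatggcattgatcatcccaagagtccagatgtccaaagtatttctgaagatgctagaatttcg
GGGCGG was found in 2 places in the Col16a1 window and in 2 places in the Col23a1 window, and it is present in 30.5% of the 33469 windows of that length in the table. Neither it nor TATAAA, the TATA box, was found in the Col28a1 window on either strand. That window has 1 forward reading frame without a stop codon over its whole length, and the Col16a1 window has 2. Both windows may lie inside transcripts that begin farther upstream, which was not tested. Their motifs and base composition are therefore given for the printed bases alone, and the missing boxes are not a finding about the Col28a1 promoter. TATAAA is present in 12.9% of all windows. The GC content was 74.8% for Col16a1, 73.2% for Col23a1 and 43.2% for Col28a1, against a median of 51.2% over all windows. Col16a1 was higher in pMx and Col23a1 lower, and their windows had the same number of GC boxes and nearly the same base composition. Whether either feature bears on the direction of the differences was not tested.

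In pMx versus Sham, 6 of the 10 genes were called, 2 higher and 4 lower in pMx. Over all genes tested, 3.36% were called higher and 4.85% lower. In Sham versus Intact, 3 were called, 2 higher and 1 lower in Sham, where the shares over all genes were 1.42% and 0.533%. The pMx and Sham libraries did not overlap for 9 of the 10 genes, 5 higher and 4 lower in pMx, and such separation was seen for 27.0% and 29.0% of all genes. The Sham and Intact libraries did not overlap for 6 genes, 5 higher and 1 lower in Sham, against 14.2% and 16.4% of all genes. These counts follow from the choice of the genes. In bulk tissue, fewer cells of a type and less RNA per cell cannot be told apart. The median difference of the 10 genes was 0.20 for pMx versus Sham and 0.19 for Sham versus Intact, against -0.01 and -0.02 over all genes tested. Without Intact replicate 3, the library with muscle RNA, the Sham versus Intact differences of the 3 genes called there were 2.69 for Col12a1, 1.23 for Col16a1 and -1.30 for Col28a1, against 2.65, 1.43 and -1.11 with it. The plot of TPM by library shows each gene on its own scale.

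**Figure D1:**
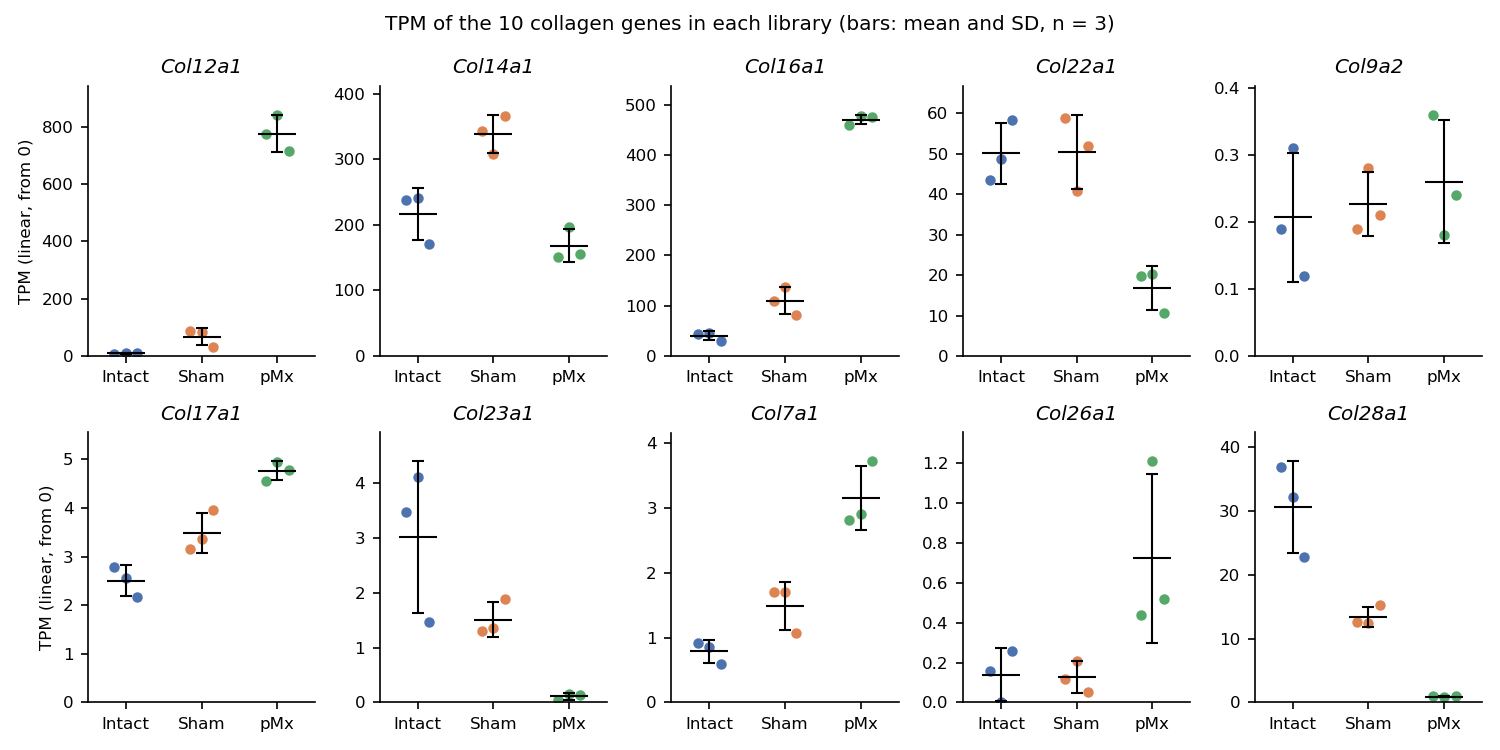
Each panel plots the TPM of 1 gene (linear axis from 0, scale differing by panel) in the 3 libraries of the Intact, Sham and pMx groups, with the mean and SD as bars. Col12a1, Col16a1, Col17a1 and Col7a1 are ordered Intact, Sham, pMx without overlap, Col28a1 is ordered the other way, and Col14a1 is highest in Sham.

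Col12a1 (gene identifier 25683) codes for type XII collagen, a FACIT of tendon, ligament and other tissues under load. It was at 7.57, 10.09 and 9.49 TPM (Intact), at 85.92, 84.35 and 32.5 TPM (Sham) and at 775.17, 842.3 and 714.77 TPM (pMx). No library of one group reached the range of another, and Sham replicate 3 lay well below the other Sham libraries. The mean was 9.05 ± 1.32 TPM in Intact, 67.6 ± 30.4 in Sham and 777 ± 63.8 in pMx (SD, n = 3 each), which is 7.47-fold higher in Sham than in Intact and 11.5-fold higher in pMx than in Sham. Col12a1 thus moved from rank 9096 among all genes in Intact to rank 187 in pMx. Sham versus Intact gave a difference of 2.65 and pMx versus Sham one of 3.63 (standard error 0.33 each). Without Sham replicate 3 these differences were 3.11 and 3.17.

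Col14a1 (gene identifier 314981) codes for type XIV collagen, a FACIT close to type XII in structure. Its TPM was 237.78, 241.67 and 170.58 (Intact), 343.67, 308.48 and 366.07 (Sham) and 150.39, 196.38 and 155.74 (pMx). Every Sham library was above every Intact and every pMx library, and the Intact and pMx libraries overlapped. The mean fell from 339 ± 29.0 TPM in Sham to 168 ± 25.2 TPM in pMx (SD, n = 3 each), a difference of -1.02 (standard error 0.15). That is just past the threshold of 1, and the call was lost without Sham replicate 3, without pMx replicate 1 and without pMx replicate 3, with differences from -1.14 to -0.95 as each library was left out. Sham versus Intact gave 0.66 (standard error 0.15), and 0.50 without Intact replicate 3. Col14a1 was the most abundant of the 10 genes in the Intact and Sham groups, and Col12a1 was the most abundant in pMx.

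Col16a1 (gene identifier 366474) codes for type XVI collagen, a FACIT-related chain made by fibroblasts and chondrocytes. It was at 43.66, 46.56 and 29.4 TPM (Intact), 110.1, 136.58 and 82.23 TPM (Sham) and 459.63, 476.89 and 474.6 TPM (pMx). The 3 groups did not overlap, and Sham replicate 3 was again the lowest Sham library. The mean rose 2.75-fold from Intact to Sham and 4.29-fold from Sham to pMx, differences of 1.43 and 2.12 (standard error 0.20 each).

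Col22a1 (gene identifier 315071) codes for type XXII collagen. Its TPM was 43.5, 48.77 and 58.37 (Intact), 58.83, 40.72 and 51.91 (Sham) and 19.71, 20.21 and 10.57 (pMx). The Intact libraries all lay within the Sham range, with means of 50.2 ± 7.54 and 50.5 ± 9.14 TPM, while all pMx libraries were lower, at a mean of 16.8 ± 5.43 TPM (SD, n = 3 each). The difference in pMx versus Sham was -1.57 (standard error 0.24) and stayed between -1.72 and -1.28 when each library was left out in turn. Because type XXII collagen is known from the ends of muscle fibers, its level was set beside the skeletal muscle markers. Their sum was 67.3 to 49791 TPM in Intact, 266 to 3373 TPM in Sham and 97.2 to 3471 TPM in pMx. Within each of the Intact and pMx groups the library with the lowest muscle sum also had the lowest Col22a1. In Intact, Col22a1 was at 43.5 TPM at a muscle sum of 67.3 TPM and at 58.37 TPM at a sum of 49791 TPM. In pMx, it was at 10.57 TPM at a sum of 97.2 TPM and at 19.71 and 20.21 TPM at sums of 3023 and 3471 TPM. In Sham, the library with the highest sum, 3373 TPM, had the lowest Col22a1, 40.72 TPM. The part of muscle RNA in the values of Col22a1 was not tested.

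Col9a2 (gene identifier 362584) codes for a chain of type IX collagen, the FACIT of cartilage. It was the lowest of the 5 FACIT genes, at 0.12 to 0.31 TPM in Intact, 0.19 to 0.28 TPM in Sham and 0.18 to 0.36 TPM in pMx. The 3 groups overlapped, and the differences of 0.03 and 0.04 (standard error 0.08 each) were smaller than their errors. The partner chains of type IX collagen were also low, with Col9a3 at 0.88 to 2.59 TPM and Col9a1 at 0.08 to 0.91 TPM over the 9 libraries. Col9a1 was 0.530 TPM in Sham and 0.160 TPM in pMx on average, a difference of -0.40 (standard error 0.11, adjusted p = 0.0190 from limma) that did not reach the threshold of 1. Type II collagen, the fibril on which type IX sits, was low as well, with Col2a1 below 1 TPM in 7 of the 9 libraries and at 16.14 and 2.26 TPM in Intact replicate 1 and Sham replicate 3. Aggrecan, another cartilage gene, was at 182.29 to 236.05 TPM of Acan in the pMx libraries against 6.84 to 32.52 TPM (Sham).

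Col17a1 (gene identifier 294027) codes for the transmembrane collagen of hemidesmosomes, the junctions that fix epithelial cells to their basement membrane. Its TPM was 2.79, 2.56 and 2.16 (Intact), 3.16, 3.36 and 3.95 (Sham) and 4.56, 4.95 and 4.77 (pMx). The groups did not overlap, although the differences were small, 0.36 (standard error 0.11) in both comparisons, and neither passed the threshold of 1. Epidermal markers, of which 4 of 7 were analysed, were at or near 0, with sums of 0 TPM in every Intact library, at most 0.05 TPM in Sham and 0.12 to 0.42 TPM in pMx. Col23a1 (gene identifier 353303) codes for type XXIII collagen, another transmembrane chain that proteases release from the cell surface. It was at 3.47, 4.11 and 1.47 TPM (Intact), 1.31, 1.35 and 1.88 TPM (Sham) and 0.04, 0.16 and 0.13 TPM (pMx). The pMx libraries were all below the Sham libraries, and Intact replicate 3 lay within the Sham range. The mean was 13.8-fold lower in pMx than in Sham, which the log2(TPM + 1) scale shows as -1.17 (standard error 0.24) because the pMx values are near 0. The value was -2.97 with a pseudocount of 0.1. In Sham versus Intact the difference was -0.62 (standard error 0.24), and -0.93 without Intact replicate 3.

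Col7a1 (gene identifier 301012) codes for the anchoring fibril collagen. Its TPM was 0.92, 0.86 and 0.59 (Intact), 1.71, 1.7 and 1.07 (Sham) and 2.82, 2.91 and 3.72 (pMx). The 3 groups did not overlap, and the mean in pMx was 2.11-fold that in Sham, which in turn was 1.89-fold that in Intact. The differences of 0.74 and 0.47 (standard error 0.14 each) stayed under the threshold of 1, and the former became 1.05 and was called with a pseudocount of 0.1. Col26a1 (gene identifier 685612) codes for type XXVI collagen, a short secreted chain first known from the gonads. It was at 0.16, 0 and 0.26 TPM (Intact), 0.12, 0.21 and 0.05 TPM (Sham) and 0.44, 1.21 and 0.52 TPM (pMx). All pMx libraries were above all others, pMx replicate 2 by the most. The difference in pMx versus Sham was 0.59 (standard error 0.16) and 1.81, past the threshold, with a pseudocount of 0.1.

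Col28a1 (gene identifier 312115) codes for type XXVIII collagen, whose chain carries von Willebrand factor A domains and is known from peripheral nerve. It was at 36.92, 32.17 and 22.75 TPM (Intact), 12.54, 12.48 and 15.23 TPM (Sham) and 0.93, 0.89 and 0.95 TPM (pMx). The groups did not overlap, and the pMx libraries lay within 0.06 TPM of each other. The mean was 2.28-fold lower in Sham than in Intact and 14.5-fold lower in pMx than in Sham, differences of -1.11 and -2.90 (standard error 0.17 each). The call in Sham versus Intact was lost without Intact replicate 1, at -0.97. Col28a1 and Col23a1 had means that were lower at both steps, and Col28a1 ranked 17 among the 44 collagen chains by mean TPM in Intact and 32 in pMx.

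The plot of the differences between groups sets the 10 genes beside 8 further chains of the same classes that were not among those chosen (Col21a1 was not analysed here). Of these 8, only Col18a1 was called in pMx versus Sham. None was called by limma in Sham versus Intact. There, 4 had an unadjusted p below 0.05, and 3 an adjusted p below 0.05 with too small a difference. Over all 16512 genes tested in that comparison, 4743 had an unadjusted and 2097 an adjusted p below 0.05. The adjusted p was below 0.05 for 5 of the 8 in pMx versus Sham, against 6046 of all genes. Col18a1 codes for the basement membrane collagen from which endostatin is cut, and it rose from 183 TPM in Sham to 426 TPM in pMx (difference 1.22, standard error 0.19, adjusted p = 0.00130 from limma). Its close relative Col15a1 went from 198 to 329 TPM (0.73, standard error 0.16, adjusted p = 0.00865 from limma), below the threshold of 1. Col13a1, a transmembrane chain of muscle and nerve junctions, was at 4.38 TPM in Intact, 3.06 TPM in Sham and 2.60 TPM in pMx. The FACIT gene Col20a1 was at 0.313, 0.963 and 0.507 TPM in the same order, and Col19a1 and Col25a1 stayed below 1 TPM in every library. The median difference of the 8 chains was 0.0023 for pMx versus Sham and -0.03 for Sham versus Intact.

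**Figure D2:**
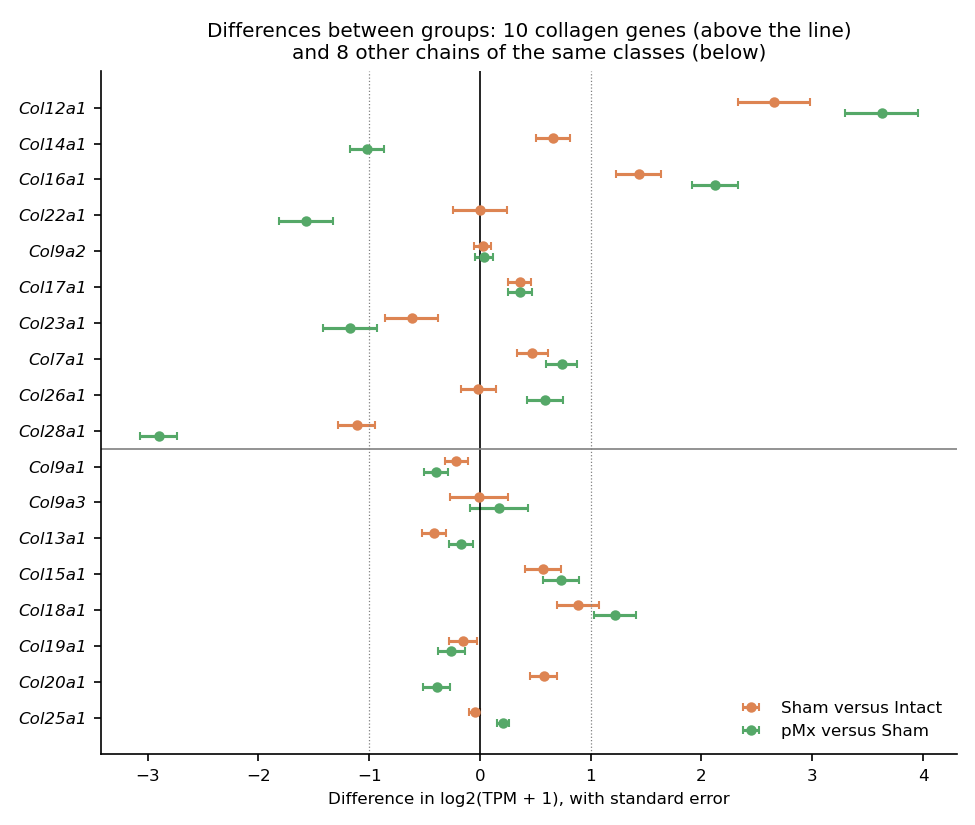
Points are differences in mean log2(TPM + 1) between groups with their standard errors, for the 10 genes above the line and 8 other chains of the same classes below it, and the dotted lines mark the threshold of 1 in either direction. Col12a1 and Col28a1 lie farthest from 0 in pMx versus Sham, at 3.63 and -2.90, and the 8 other chains lie between -0.40 and 1.22 in that comparison.

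The summed TPM of the 10 genes was 353 ± 50.4 in Intact, 587 ± 31.3 in Sham and 1440 ± 93.2 in pMx (SD, n = 3 each), and the groups did not overlap. Its makeup differed. Col14a1 held 61.1% ± 2.88 of the sum in Intact, 58.0% ± 7.08 in Sham and 11.6% ± 1.06 in pMx (SD, n = 3 each). Col12a1 held 2.61% ± 0.600, 11.4% ± 4.77 and 53.9% ± 1.37, and Col16a1 held 11.2% ± 1.08, 18.6% ± 4.26 and 32.7% ± 1.96 in the same order (SD, n = 3 each). Col28a1 held 8.60% ± 1.07 of the sum in Intact and 0.0643% ± 0.00609 in pMx (SD, n = 3 each). Against all 44 collagen chains, whose sum rose more, the 10 genes held 3.74% ± 0.425 of the collagen TPM in Intact, 2.60% ± 0.254 in Sham and 2.38% ± 0.0656 in pMx (SD, n = 3 each).

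**Figure D3:**
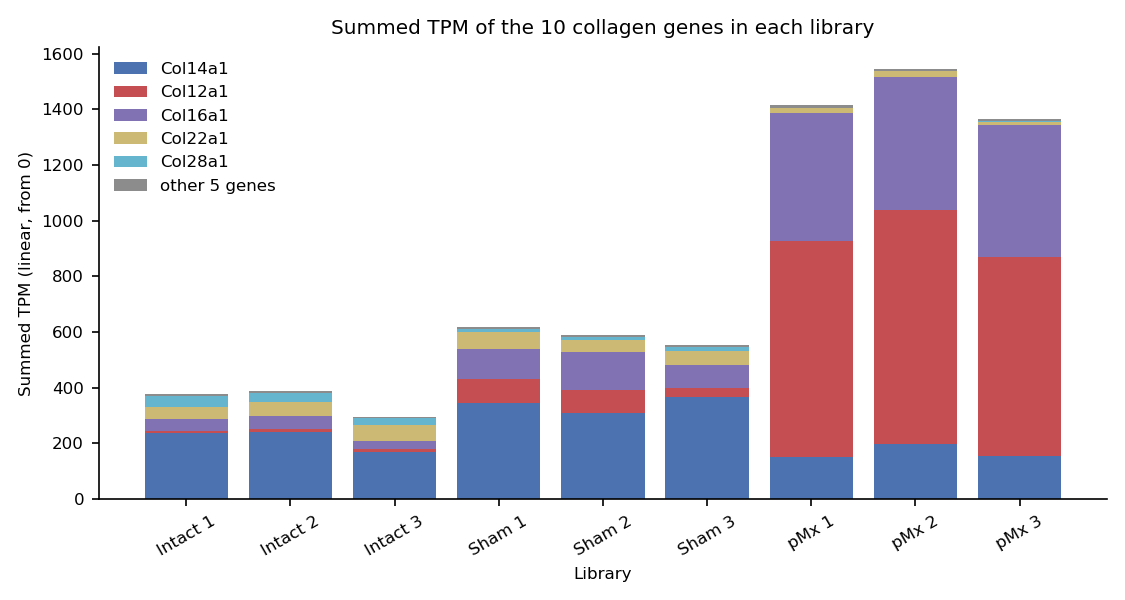
Stacked bars give the summed TPM of the 10 genes in each of the 9 libraries, with Col9a2, Col17a1, Col23a1, Col7a1 and Col26a1 joined as the other 5 genes. The bars reach 295.19 to 387.1 TPM in Intact and 1366.01 to 1546.08 TPM in pMx, where Col12a1 and Col16a1 make up most of the height. Col14a1 makes up most of it in the Intact and Sham libraries.

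FACITs sit on fibrils, so the 3 abundant FACIT genes were also set against Col1a1, which codes for the main chain of type I collagen, in the same library. Such a ratio does not depend on the scaling of the library. Per 1000 TPM of Col1a1, Col12a1 was at 4.11, 6.39 and 8.42 (Intact), 19.4, 16.4 and 8.22 (Sham) and 47.9, 51.6 and 49.4 (pMx). The pMx libraries stood above all others, while Sham replicate 3 fell within the Intact range. Col14a1 went the other way, with 129, 153 and 151 (Intact), 77.8, 60.1 and 92.6 (Sham) and a mean of 10.7 ± 1.37 in pMx (SD, n = 3), and the 3 groups did not overlap. The higher TPM of Col14a1 in Sham than in Intact was thus a smaller rise than that of Col1a1. Col16a1 kept close to Col1a1 throughout, at 26.4 ± 2.91 in Intact, 24.1 ± 3.00 in Sham and 30.1 ± 2.35 in pMx (SD, n = 3 each), and the Intact libraries overlapped those of both other groups, while the Sham and pMx libraries did not overlap. The ratio of Col12a1 to Col14a1 was 0.0318 to 0.0556 (Intact), 0.0888 to 0.273 (Sham) and 4.29 to 5.15 (pMx).

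**Figure D4:**
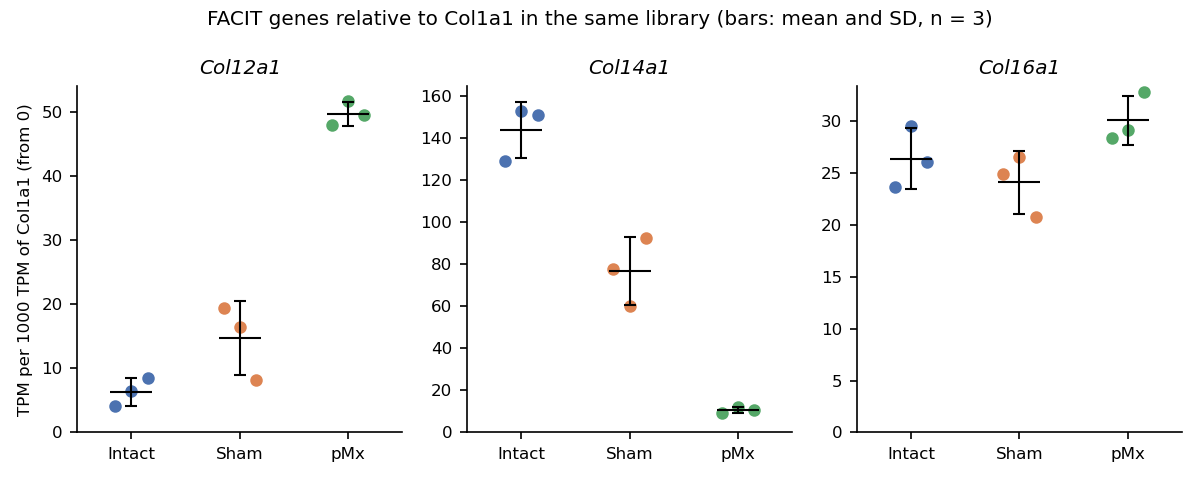
Points are the TPM of Col12a1, Col14a1 and Col16a1 per 1000 TPM of Col1a1 in each library (linear axes from 0), with the mean and SD of 3 libraries as bars. Col12a1 is highest and Col14a1 lowest in pMx, whereas Col16a1 stays between 20.8 and 32.8 in all 9 libraries.

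Proteins that bind these collagens on the fibril surface, anchor them, process them or act as their receptors are coded by 31 further genes of the table, listed by role (Tnxb, Matn1 and Tll2 were not analysed here). In pMx versus Sham, 5 of the 31 were called, 4 higher and 1 lower, and in Sham versus Intact 4 were called, all higher. Over all genes tested, 3.36% were called higher and 4.85% lower in pMx versus Sham, and 1.42% and 0.533% in Sham versus Intact. On the fibril surface, the small proteoglycans lumican and fibromodulin and the matrilin gene Matn2 rose in pMx versus Sham. Lum was at 580 TPM in Intact, 2180 TPM in Sham and 7010 TPM in pMx, with differences of 1.90 (standard error 0.14, adjusted p = 7.60e-04 from limma) and 1.70 (standard error 0.14, adjusted p = 7.08e-05). Fmod rose from 248 to 653 TPM (1.40, adjusted p = 2.82e-04 from limma) and Matn2 from 49.5 to 136 TPM (1.45, adjusted p = 1.97e-04 from limma) between the Sham and pMx groups. Decorin, which binds type XIV collagen, was at 4680 TPM of Dcn in Sham and 2440 TPM in pMx, a difference of -0.94 (standard error 0.14, adjusted p = 9.94e-04 from limma) that did not reach the threshold of 1. In Sham versus Intact, Bgn and Matn4 were called higher besides Lum, with differences of 1.01 and 1.43 (adjusted p = 0.00468 and 0.00491 from limma). Of the 9 fibril surface genes in the table, 3 were called higher in each comparison, beside the shares over all genes given above.

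Among 7 receptor genes, Itga11, the integrin chain through which fibroblasts bind type I collagen, rose in both comparisons. It was at 10.7 TPM in Intact, 23.6 TPM in Sham and 138 TPM in pMx, differences of 1.08 (standard error 0.16, adjusted p = 0.00699 from limma) and 2.51 (standard error 0.16, adjusted p = 2.99e-05). The collagen receptor kinase gene Ddr2 fell from 116 to 52.1 TPM between the Sham and pMx groups (-1.13, standard error 0.10, adjusted p = 1.08e-04 from limma). None of the 8 hemidesmosome and anchoring genes, the partners of Col17a1 and Col7a1, was called by limma in either comparison. In pMx versus Sham, 3 of them had an unadjusted p below 0.05, against 7528 of all 16512 genes. Adjusted p was also below 0.05 for Plec, higher, and for Itgb4 and Cd151, lower (0.00907, 0.00848 and 0.0133 from limma). In Sham versus Intact, 5 had an unadjusted p below 0.05, against 4743 of all genes. Only Lama3, lower, had an adjusted p below 0.05 there (0.0440 from limma). The differences of the 8 genes in pMx versus Sham ran from -0.73 for Itgb4 to 0.33 for Plec. In Sham versus Intact all 8 were lower, from -0.42 to -0.16, and 5 did not overlap, against 16.4% of all genes. Col17a1 and Col7a1 were higher there, by 0.36 and 0.47. The 3 chains of the laminin that type VII collagen binds were low, at means of 0.687 to 5.26 TPM over the groups. None of the 7 processing and shedding genes was called by limma, with an unadjusted p below 0.05 for 6 in pMx versus Sham and for 4 in the other comparison. The procollagen protease gene Bmp1 was at 134 TPM in Sham and 248 TPM in pMx (0.88, adjusted p = 3.41e-04 from limma), and Furin, whose product sheds some transmembrane collagens, was at 62.9 and 75.1 TPM (0.26, adjusted p = 0.0565 from limma).

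Markers of other cell types also differed between the groups. Of 10 Schwann cell markers, 6 were called lower in pMx versus Sham, where 4.85% of all genes were. The differences of all 10 were negative, from -2.97 to -0.28. None of these markers was called by limma in Sham versus Intact, where 5 had an unadjusted p below 0.05, against 4743 of all 16512 genes. The summed level of the 10 markers was 508 to 787 TPM in Intact, 601 to 708 TPM in Sham and 296 to 313 TPM in pMx. Most of this sum came from Pmp22 (means of 358, 356 and 214 TPM) and S100b (189, 225 and 72.8 TPM). As a share of its Intact mean, Col28a1 was at 43.8% in Sham and 3.02% in pMx. The Schwann cell markers were at 50.9% (Mag) to 119% (S100b) in Sham. In the pMx group they ranged from 1.81% for Mag, a myelin adhesion protein gene, to 59.8% for Pmp22, and Sox10, a Schwann cell transcription factor, was at 7.41%. Col28a1 was at 40.8% to 49.7% in the single Sham libraries, below the Sham mean of each of the 10 markers, although Mag was at 18.4% in Sham replicate 2. The part of Schwann cell RNA in the values of Col28a1 was not tested.

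**Figure D5:**
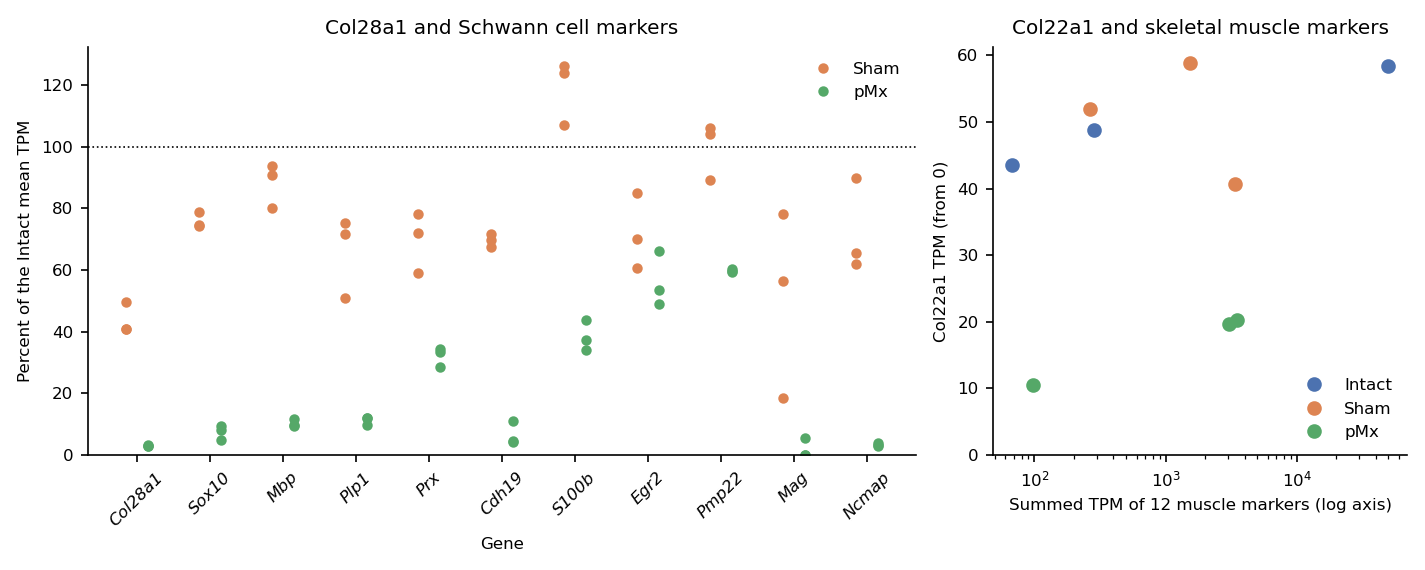
Left, the TPM of Col28a1 and 10 Schwann cell markers in each Sham and pMx library as a percentage of the Intact mean (dotted line, 100%); right, Col22a1 TPM against the summed TPM of 12 skeletal muscle markers in each of the 9 libraries (log axis). Col28a1 is at 40.8% to 49.7% in the Sham libraries and at 2.91% to 3.10% in the pMx libraries, and Col22a1 is at 10.57 to 20.21 TPM in the pMx libraries and at 40.72 to 58.83 TPM in the others.

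Adventitial fibroblasts are the cells around vessels in which Col14a1 is often high. Of their 4 markers, Pi16, Dpp4 and Clec3b were called lower in pMx versus Sham, where 4.85% of all genes were. Cd34 was lower without being called. As a share of the Intact mean, Pi16 was at 32.7% in pMx, Dpp4 at 25.9%, Clec3b at 13.7%, Cd34 at 69.7% and Col14a1 at 77.3%. In the Sham group the 4 markers were at 110% to 266% and Col14a1 at 157%. Adipocyte markers summed to 3295 to 6976 TPM in Intact, 4278 to 4610 TPM in Sham and 302 to 475 TPM in pMx, and all 5 fell in pMx versus Sham. Endothelial markers summed to 447 to 692 TPM over all libraries. Macrophage markers summed to 181 to 305 TPM in Intact, 353 to 415 TPM in Sham and 361 to 436 TPM in pMx. In Sham versus Intact, Cd68, Csf1r and Adgre1 were higher without being called (adjusted p = 0.00975, 0.0440 and 0.0467 from limma). Cd163 was at 27.7 and 27.2 TPM in Intact and Sham. Of the macrophage markers, Cd163 was called lower in pMx versus Sham. Cd68 went the other way, from 150 TPM in Sham to 209 TPM in pMx (0.47, adjusted p = 0.0428 from limma), below the threshold of 1. Csf1r was at 184 and 170 TPM and Adgre1 at 28.2 and 25.8 TPM in the same order, neither called. Chondrocyte markers summed to 507 to 607 TPM in Sham and 984 to 1192 TPM in pMx, mostly from Comp. Sox9, Acan and Hapln1 were called higher in that comparison, where 3.36% of all genes were, and the other 8 were not called. By adjusted p below 0.05 alone, as for 6046 of all 16512 genes, 4 were higher and 2 lower, the lower ones being Cnmd and Col9a1. Cnmd was at 0.44 to 1.05 TPM in Sham and at 0 TPM in every pMx library (-0.83, adjusted p = 0.00406 from limma). The part of these cell types in the values of the 10 genes was not tested.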

How the data were processed

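RNA from 3 Intact, 3 Sham and 3 pMx samples was measured, grouped by sample title. The authors deposited TPM values rounded to 2 decimals, each library summing to 999999 to 1000000. The submitters' processing notes name HISAT2 2.0.4 and the build mRatBN7.2, and the counting tool is not given in the sources used here. The depth is unknown, so precision is the spread between replicates. RNA integrity numbers of the study entered no fit. All 9 columns of values were mapped and 0 left out.

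Here, log2(TPM + 1) was fitted with limma 3.58.1 in R 4.3.3 (1 mean per group over all 9 libraries, mean-variance trend), with Benjamini-Hochberg adjustment over 16512 genes, after the fit had been checked on simulated data. All 10 gene identifiers were found in the RefSeq table of GRCr8. The genes and lists were chosen with earlier results of these data known. Genes named are the 10 genes, list genes that were called and list genes with a role beside them. Alternatives changed the pseudocount, filter, scaling, variance model, block, threshold or libraries. Of the Schwann cell markers listed at first, 1 is not reported here.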

Additional observations from a re-analysis of the deposited data

How the results depend on the processing

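The counts of called genes changed most with the pseudocount and the threshold. In pMx versus Sham, 1355 genes were called, 2229 and 2303 with pseudocounts of 0.1 and 0.01, and 6046 with the adjusted p alone. In Sham versus Intact, 323 were called, and 612, 603 and 2097 in the same settings. Of the 10 collagen genes, 6 were called in pMx versus Sham and 8, 7 and 9 in these settings, and 3 in Sham versus Intact, with 3, 3 and 4. Of the 8 other chains, 1 was called in pMx versus Sham and 2, 3 and 5 in these settings, and 0 in Sham versus Intact, with 1, 1 and 3. Of the 31 partner genes, 5 and 4 were called, and 19 and 12 with the adjusted p alone. The labels number the libraries 1 to 3 in each group. Same-numbered libraries deviated from their group means with correlations of 0.035, 0.368 and 0.485 (pMx and Sham) and 0.002, -0.399 and -0.493 (Sham and Intact), and not every library correlated best with its own number, so the numbers were not taken as pairs. With the replicate number as a block, 1343 and 297 genes were called, with 6 and 3 of the 10 collagen genes, 1 and 0 other chains and 5 and 4 partner genes; these numbers for the collagen, other chain and partner genes equal those without the block.

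With each library left out in turn, calls in pMx versus Sham ranged from 1222 to 1448 genes, 5 to 6 of the 10 genes, 1 to 1 of the other chains and 5 to 7 partner genes. In Sham versus Intact they ranged from 193 genes (without Sham replicate 2) to 423, 2 to 3 of the 10, 0 to 1 of the other chains (1 without Intact replicate 2 and 1 without Sham replicate 3) and 2 partner genes (without Intact replicate 3) to 6. The log2 ratio of Col12a1 to Col14a1 differed by 4.16 to 4.97 in pMx versus Sham and 1.83 to 2.64 in Sham versus Intact, that of Col12a1 to Col1a1 by 1.47 to 2.09 and 0.91 to 1.56, and that of Col14a1 to Col1a1 by -3.00 to -2.69 and -1.07 to -0.76. No called difference of the 10 genes changed sign in any setting. The uncalled differences of Col9a2, Col22a1 and Col26a1, all near 0 in Sham versus Intact, did, as did that of Col9a2 in pMx versus Sham without pMx replicate 1. With no read counts, values under about 1 TPM cannot be given a counting error. The cause of these changes was not tested.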
